A study of Mus musculus with 12 samples.

Results

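The clustered replication-dependent histone genes were followed in total RNA from the meninges, the membranes around the brain, of 12 C57bl/6 mice. Members were chosen by symbol (Hist, a digit, then h) and by their read counts, with at least 1 count required in any library, which gave 69 genes of 47747 listed symbols. No difference between groups entered the choice of a single gene. Hist1h1t, the testis linker histone, was just inside this limit with 0 to 5 counts a library, and Hist1h2aa, at 0 counts in all 12, was just outside it. By symbol, the members comprised 6 genes of the linker histone H1, 19 of H2A, 19 of H2B, 12 of H3 and 13 of H4, including 3 pseudogene models. Clusters were also read from the symbol, with 55 members in Hist1, 10 in Hist2, 3 in Hist3 and 1 in Hist4. Hist1h2al, a processed pseudogene counted in Hist1, lies apart from the others at chr13:51202727-51203065. The set was picked with earlier results of these data known.

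Each group had 6 mice, written here as Control 1 to 6 and DSS 1 to 6. DSS mice were given dextran sulfate sodium, a polymer that injures the colon lining, at 2% in drinking water for 5 days and then normal water, and were culled after 6 days; the labels give the Control mice the same strain and no other agent. No age or sex is given in the sources used here, and each library is 1 labelled mouse. A source field names colon, while titles and extraction text name meninges. The summed level of 8 meningeal fibroblast markers was 10116 to 19419 CPM (a count scaled to its library's normalized size), whereas 6 colon epithelium markers summed to 4.72 to 12.4 CPM and Cdx2, the intestinal transcription factor, had 0 counts.

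During DNA replication a cell must package the new DNA, and replication-dependent histone genes supply most of the protein for it in S phase. Their genes typically have no introns, sit in clusters and occur in many copies, often as H2A and H2B genes that point away from each other. Their mRNA ends, without a poly(A) tail, just after a short stem-loop that SLBP, the stem-loop binding protein, holds, whereas replacement histones such as H3.3 are made in all phases from ordinary polyadenylated mRNA. Some clustered genes also yield longer polyadenylated transcripts in cells that have stopped dividing.

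The stem-loop is shown because it sets these mRNAs apart. The histone 3′ stem-loop, a paired stem of 6 bases around a loop of 4, was searched on the transcript strand of GENCODE M21 transcripts on GRCm38 and stood in 46 of 69 member models against 4.80% of 21811 other coding genes. The other 23 member models lacked it. Of these, 16 have a length that is a multiple of 3, as a coding-only model would. They include the processed pseudogenes Hist1h2al and Hist3h2bb-ps, so the length alone does not show that a model is coding-only. The sites below carry 5 flanking bases in lower case on either side and the stem-loop in capitals.
Hist1h2ag: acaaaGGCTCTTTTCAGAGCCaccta
Hist1h3c: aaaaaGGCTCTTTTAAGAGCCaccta
Hist1h4h: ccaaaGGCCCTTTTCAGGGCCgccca
Hist1h4j: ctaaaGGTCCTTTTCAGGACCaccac
Hist1h1c: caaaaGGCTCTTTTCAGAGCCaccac
The letters of the Hist1h2ag and Hist1h1c stem-loops were the most frequent, in 26 members: 3 H1, 10 H2A, 8 H2B, 5 H3 and no H4 gene. The letters of Hist1h4h occurred in 7 members, all of them H4. Those of Hist1h3c occurred in 6 members of the H1, H2B and H3 classes, and those of Hist1h4j in 2 H4 genes.

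RefSeq promoters (GRCm38.p6, 250 bases before to 50 after the start) matched 60 members by symbol or synonym. Searched on both strands, CCAAT was present in 51 of 60 promoters (85%) against 37.8% of 26965 other promoters, TATAAA in 34 of 60 (56.7%) against 14.1%, and the octamer ATTTGCAT in 12 of 60 (20%) against 1.71%. CCAAT was in 48 of 48 promoters of the H1, H2A, H2B and H3 classes and in 3 of 12 H4 promoters, and the octamer was in 6 of 16 H2A and 6 of 16 H2B promoters and in no H1, H3 or H4 promoter. Windows are shown for a gene that rose and is discussed first below, for an H2A gene whose H2B neighbour was not called, and for the H4 gene with the highest level per length, which holds none of these 3 motifs. Capitals mark the motifs on either strand.
Hist1h2ah: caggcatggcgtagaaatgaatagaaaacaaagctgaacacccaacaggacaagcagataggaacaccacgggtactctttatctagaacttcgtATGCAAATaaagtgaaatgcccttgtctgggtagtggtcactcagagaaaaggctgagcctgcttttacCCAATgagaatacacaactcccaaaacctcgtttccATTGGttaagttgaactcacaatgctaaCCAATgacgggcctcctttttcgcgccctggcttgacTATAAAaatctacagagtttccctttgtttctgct
Hist1h2ac: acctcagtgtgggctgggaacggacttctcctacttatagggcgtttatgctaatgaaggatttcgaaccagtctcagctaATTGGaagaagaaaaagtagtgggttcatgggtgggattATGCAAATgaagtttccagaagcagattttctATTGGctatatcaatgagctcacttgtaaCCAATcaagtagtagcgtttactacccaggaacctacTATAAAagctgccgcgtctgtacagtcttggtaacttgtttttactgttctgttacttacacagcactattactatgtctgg
Hist1h4h: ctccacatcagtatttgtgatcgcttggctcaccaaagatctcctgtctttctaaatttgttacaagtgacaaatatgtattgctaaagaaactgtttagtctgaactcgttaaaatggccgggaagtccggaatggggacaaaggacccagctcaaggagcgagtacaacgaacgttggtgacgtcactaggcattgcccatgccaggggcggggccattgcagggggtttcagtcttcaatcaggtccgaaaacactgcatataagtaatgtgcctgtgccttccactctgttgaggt
These are chr13:22035594-22035893 (minus strand), chr13:23683910-23684209 (minus strand) and chr13:23530794-23531093 (plus strand) in GRCm38.p6. A match is a run of letters, not a measured binding site.

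Of 69 members, 68 passed the filter on low counts, and 32 of these rose in DSS meninges and 0 fell (edgeR quasi-likelihood test, Benjamini-Hochberg adjusted p under 0.05 over all 18593 genes tested). None fell with DESeq2 or limma-voom either, and 0 had an unadjusted edgeR p under 0.05 with a lower DSS level. Over all genes tested, 3.68% rose and 1.26% fell. The median log2 fold change of the 68 was 0.85, against -0.02 over all genes, and 62 of them were above 0, against 45.3% of all genes. In 14 members every DSS mouse was above every Control mouse, which held for 2.23% of all genes. Unadjusted p was under 0.05 for 50 members, and for 19.0% of all genes. In bulk RNA, more cells that make a transcript and more transcript per cell cannot be told apart.

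**Figure D1:**
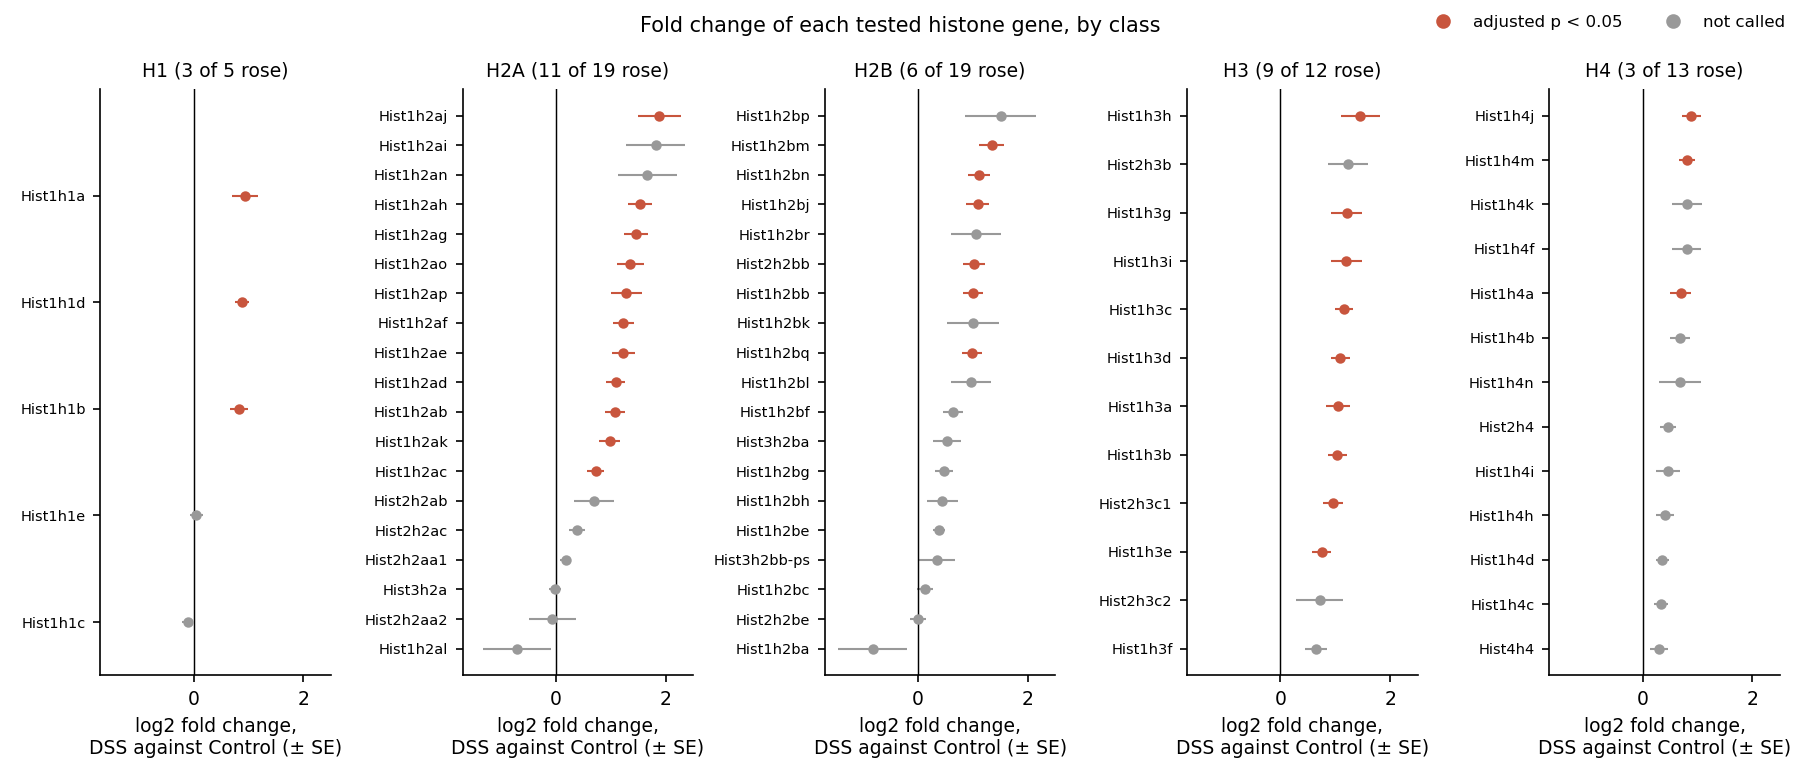
Log2 fold change of each tested member, DSS against Control, with its standard error, in 5 panels by histone class; red points passed the test (adjusted p under 0.05) and grey points did not. Nearly every point lies right of 0, 9 of 12 H3 genes and 3 of 13 H4 genes are red, and no gene with a negative value is red.

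Read over the whole class, the histone transcripts made up a larger part of the RNA in most DSS mice. The summed level of all 69 members ran from 1241 to 1797 CPM in Control mice, with a median of 1638, and from 1647 to 2723 in DSS mice, with a median of 2498. DSS 3, at 1647, lay within the Control range and DSS 2, at 1837, just above it, while DSS 1, 4, 5 and 6 were at 2497 CPM or more. The group means were 1560 ± 232 and 2305 ± 449 CPM (SD, n = 6 each), a ratio of 1.48. No test was made on sums, since the members were chosen with results known.

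H3 transcripts showed the largest ratio of the 5 classes. The summed H3 level was 221 ± 34.6 CPM in Control and 440 ± 133 CPM in DSS mice (SD, n = 6 each), a ratio of 1.99, and 5 of 6 DSS mice were above every Control mouse. The share of H3 in all histone counts was 14.2% ± 1.52 in Control and 18.7% ± 2.47 in DSS mice. H1, which binds the DNA between nucleosomes, showed the smallest ratio: 218 ± 36.4 against 231 ± 16.5 CPM, a ratio of 1.06, and its share went from 14.0% ± 0.95 to 10.3% ± 2.02. H2B, H4 and H2A lay between, with ratios of 1.52, 1.44 and 1.42. Differences between classes were not tested.

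**Figure D2:**
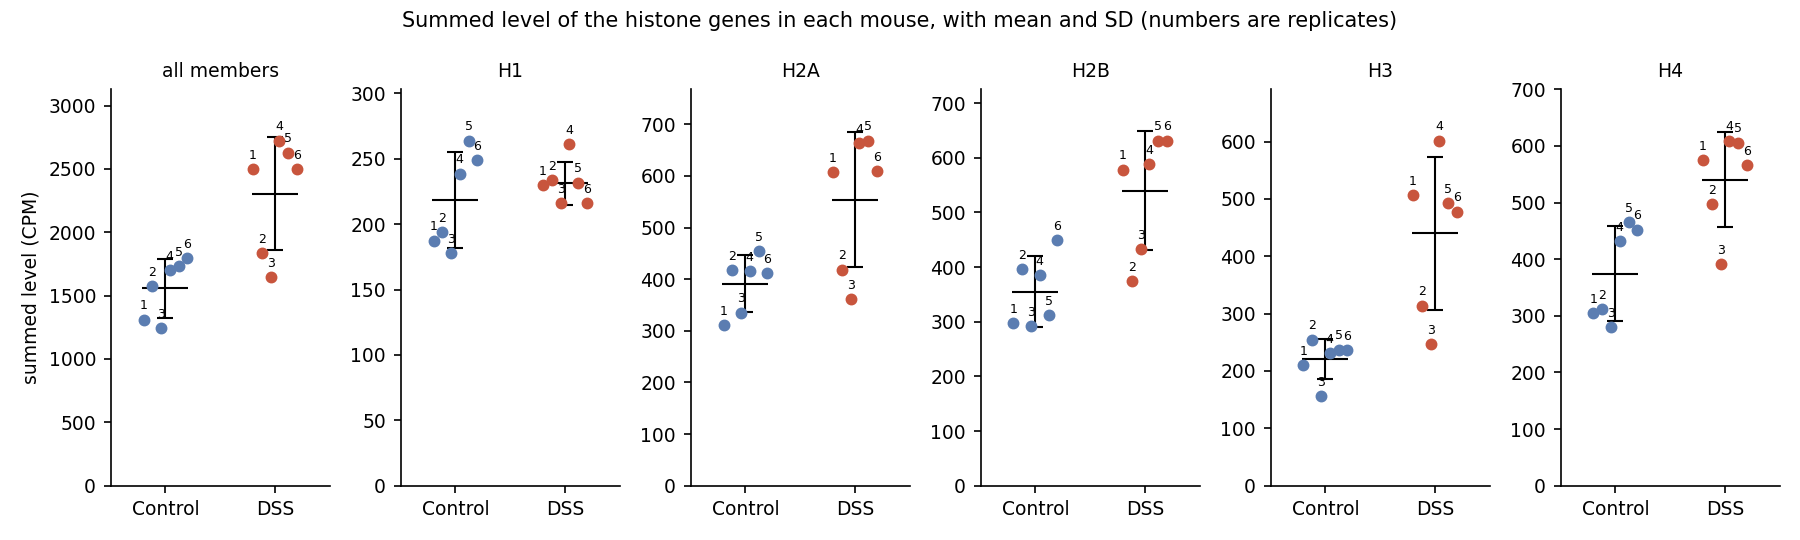
Summed level in CPM of all members and of each class in every mouse; points are mice with their replicate number, horizontal lines are group means and bars are SD (n = 6 per group), and each panel has its own axis from 0. DSS 2 and DSS 3 are the lowest DSS mice in all members, H2A, H2B, H3 and H4, and the H1 panel shows overlapping groups.

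H2A pairs with H2B in the nucleosome, and 11 of its 19 tested genes rose (median log2 fold change 1.09). Hist1h2ah (chr13:22035164-22035568, 1 exon) had the smallest p of all members, though 7.87% of its 50-base windows occur in no other gene, a limit taken up below. Its level ran from 5.11 to 8.81 CPM in Control mice (median 6.71) and from 10.7 to 27.2 CPM in DSS mice (median 18.7). The groups did not overlap, and DSS 3 was the lowest DSS mouse. Means were 6.75 ± 1.46 and 19.72 ± 6.497 CPM (SD, n = 6 each), a log2 fold change of 1.53 ± 0.21 (SE; edgeR adjusted p = 0.00108).

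Hist1h2ag ran from 2.25 to 8.00 CPM in Control mice (median 5.07) and from 9.73 to 16.3 CPM in DSS mice (median 14.4), a log2 fold change of 1.46 ± 0.22 (SE; edgeR adjusted p = 0.00166). Hist1h2ad ran from 14.4 to 27.6 CPM (median 22.4) and from 28.0 to 55.9 CPM (median 48.5), with a log2 fold change of 1.09 ± 0.17 (edgeR adjusted p = 0.00246). Neither gene's groups overlapped. Hist1h2af, Hist1h2ae and Hist1h2ak, also with groups that did not overlap, had log2 fold changes of 1.23, 1.23 and 0.98. Hist1h2ab and Hist1h2ao rose with 1.07 and 1.36, with 5 and 4 of 6 DSS mice above every Control mouse. Hist1h2aj, which GENCODE M21 lists as a pseudogene, had the largest log2 fold change of any member, 1.88 ± 0.39 (edgeR adjusted p = 0.0129), from 0.92 to 4.96 CPM in Control mice (median 3.53) to 3.89 to 19.7 CPM in DSS mice (median 12.4); DSS 2 lay within the Control range.

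The H2A genes with the highest level per length did not pass the test. Hist2h2aa1 had 218 CPM per kb of exon in Control mice and Hist2h2aa2 had 200, against 38.7 for Hist1h2ab, the next H2A gene. Hist2h2aa1 ran from 101 to 156 CPM in Control mice (median 125) and from 127 to 163 CPM in DSS mice (median 145), with a log2 fold change of 0.18 ± 0.10 (SE; edgeR adjusted p = 0.385). Its groups overlapped, with 1 DSS mouse above every Control mouse. Of 14 H2A genes with Hist1 symbols, 11 rose. Of 4 with Hist2 symbols, 0 rose by edgeR, DESeq2 or limma-voom (unadjusted edgeR p under 0.05 in 1, Hist2h2ac). The processed pseudogene Hist1h2al ran from 1.31 to 22.2 CPM within the Control group alone.

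H3, which wraps DNA together with H4, had 9 of 12 genes risen; log2 fold changes had a median of 1.07 and a lowest value of 0.65. Without DSS 4, the mouse with the highest H3 sum, 5 H3 genes passed the test (2.46% of all genes rose in that fit). Hist1h3c ran from 19.1 to 26.2 CPM in Control mice (median 21.7) and from 31.7 to 70.7 CPM in DSS mice (median 51.5). The groups did not overlap. The means were 22.3 ± 2.90 and 49.95 ± 14.0 CPM (SD, n = 6 each), a log2 fold change of 1.16 ± 0.17 (SE; edgeR adjusted p = 0.00122).

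Hist1h3d ran from 12.0 to 21.8 CPM (median 16.9) in Control and from 24.2 to 48.1 CPM (median 38.2) in DSS mice, also without overlap, with a log2 fold change of 1.09. Hist1h3b (1.04) likewise had every DSS mouse above every Control mouse, and Hist1h3a (1.05) had 5 of 6. Hist2h3c1 ran from 22.2 to 39.7 CPM in Control mice (median 36.5) and from 37.7 to 85.4 CPM in DSS mice (median 71.6), with a log2 fold change of 0.96 ± 0.18 (SE; edgeR adjusted p = 0.00677). DSS 3 was its 1 DSS mouse inside the Control range. Hist2h3b, the H3 gene with the highest level per length, had a log2 fold change of 1.22 ± 0.36 but an edgeR adjusted p of 0.0694; 5 DSS mice were at 41.8 to 68.7 CPM and DSS 3 at 8.05, below every Control mouse (14.99 to 30.9).

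Of 19 tested H2B genes 6 rose, and the median log2 fold change was 0.96. Without DSS 2, 11 H2B genes passed the test (5.26% of all genes rose). Hist1h2bm ran from 2.61 to 4.61 CPM in Control mice (median 3.70) and from 4.62 to 11.2 CPM in DSS mice (median 10.4), with a log2 fold change of 1.34 ± 0.23 (SE; edgeR adjusted p = 0.00353). Hist1h2bn ran from 6.11 to 12.98 CPM (median 9.96) and from 13.96 to 24.5 CPM (median 23.4), with a log2 fold change of 1.11 ± 0.20 (edgeR adjusted p = 0.00454). Neither gene's groups overlapped, though for Hist1h2bm DSS 2 lay just above Control 2.

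Hist1h2bb, Hist1h2bj, Hist2h2bb and Hist1h2bq rose with log2 fold changes of 1.00, 1.08, 1.02 and 0.98. The H2B genes with the highest levels per length were again not called. Hist1h2bc ran from 65.0 to 126 CPM in Control mice (median 83.1) and from 71.2 to 110 CPM in DSS mice (median 99.6), with a log2 fold change of 0.13 ± 0.14 (edgeR adjusted p = 0.704). Hist1h2bg had 0.47 (edgeR adjusted p = 0.113), and in both genes the groups overlapped. GENCODE M21 gives Hist1h2bc 2 exons in 1 transcript, and its model of Hist1h2bq also spans introns. Hist1h2ba, the testis H2B, was just over the filter, at 0.24 to 0.84 CPM in 5 Control mice, 4.45 in Control 4 and 0.40 to 0.94 in DSS mice; its log2 fold change was -0.83 with all mice and 0.47 without Control 4, neither called.

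Of 13 H4 genes 3 rose, and all 13 had a log2 fold change above 0, from 0.29 to 0.89. The count was 7 with DESeq2's Wald test, by which 5.26% of all genes rose. Hist1h4m ran from 19.1 to 29.3 CPM in Control mice (median 23.6) and from 30.2 to 52.0 CPM in DSS mice (median 42.5), with groups that did not overlap and a log2 fold change of 0.81 ± 0.14 (SE; edgeR adjusted p = 0.00417). Hist1h4j rose by 0.89 ± 0.17 (edgeR adjusted p = 0.00839), with 5 of 6 DSS mice above every Control mouse. Hist1h4b, at an edgeR adjusted p of 0.0504 and a log2 fold change of 0.68, was the member nearest the threshold among those not called.

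Hist1h4h had the highest level per length of the H4 genes, 132 CPM per kb of annotated exon in Control mice. It ran from 44.3 to 75.9 CPM in Control mice (median 63.6) and from 54.6 to 98.6 CPM in DSS mice (median 86.0), with a log2 fold change of 0.41 ± 0.16 (SE; edgeR adjusted p = 0.174). DSS 2 and DSS 3 lay within the Control range. Hist1h4k, the next per length, had 0.81 ± 0.27 (edgeR adjusted p = 0.104). Hist4h4, the single Hist4 gene, had 0.29 ± 0.16 (edgeR adjusted p = 0.365).

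The H1 genes fell into those that rose and those with values near 0. Hist1h1d ran from 11.4 to 17.1 CPM in Control mice (median 14.1) and from 19.1 to 33.5 CPM in DSS mice (median 25.1), without overlap, a log2 fold change of 0.88 ± 0.13 (SE; edgeR adjusted p = 0.00154). Hist1h1b rose with 0.83 ± 0.16 (edgeR adjusted p = 0.00989), with DSS 3 inside the Control range, and Hist1h1a, the third risen H1 gene, had 0.94. Hist1h1c, the most counted H1 gene, ran from 119 to 170 CPM in Control mice (median 135) and from 120 to 142 CPM in DSS mice (median 132), with a log2 fold change of -0.11 ± 0.10 (edgeR adjusted p = 0.637). Hist1h1e had 0.05 ± 0.13 (edgeR adjusted p = 0.892). In both, no DSS mouse was above every Control mouse, and these 2 genes carried most of the H1 sum.

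Members were next taken by abundance. Of the 10 members with the highest mean CPM, 1 rose (Hist1h2bq), and their median log2 fold change was 0.25; of the other 58 tested, 31 rose (median 0.96). CPM is not scaled by length. On the scale of CPM per kb the rank correlation of log2 fold change with mean level was weak over the 68 members (Spearman -0.07). Both means were taken over all 12 mice, so a rise in DSS mice itself adds to the level. No correlation with the Control level alone was computed. CPM per kb divides by the length of the annotated model, which depends on how far the model runs past the stem-loop. Hist1h4h has 46 annotated bases there, and Hist1h4d, at 65.6 CPM per kb in Control mice, has 770. Rankings per length hold for these models only. The members share libraries and, in part, sequence, so these values are a description.

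**Figure D3:**
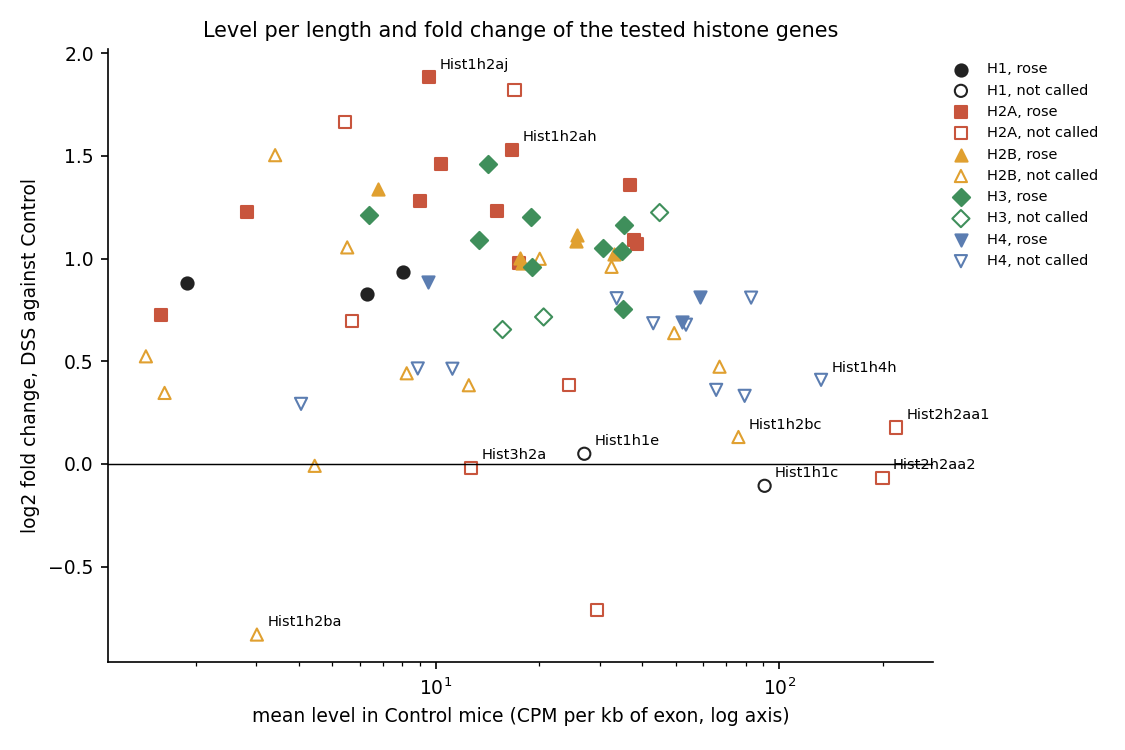
Log2 fold change of each tested member against its mean level in Control mice in CPM per kb of exon (log axis); symbols are classes, filled where the gene rose and open where it was not called. Hist2h2aa1, Hist2h2aa2, Hist1h1c and Hist1h2bc, all high per length, lie near 0, and the filled symbols lie between 0.69 and 1.88 at levels under 60 CPM per kb.

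Members were also taken by the length of the annotated transcript beyond the stem-loop; the difference between these sets was not tested. Of 23 tested members whose model ends within 100 bases of the stem-loop, 13 rose, with a median log2 fold change of 1.04. Of 22 tested members whose model runs 100 or more bases past it, 8 rose, with a median of 0.50. The log2 fold changes of both sets overlapped widely, from -0.07 to 1.503 and from -0.11 to 1.23. Hist1h1c is of the second kind, with 840 annotated bases after the stem-loop, and Hist1h2ac, which rose with 0.73 and ran from 3.15 to 5.37 CPM in Control to 5.02 to 8.62 CPM in DSS mice, has 2010. With a limit of 300 bases, chosen after the values were seen, 15 of 27 and 6 of 18 rose. The counts are per whole gene, so the short and long forms were not measured apart.

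By cluster, 30 of 54 tested Hist1 genes rose (median log2 fold change 0.97), 2 of 10 Hist2 genes (median 0.58), 0 of 3 Hist3 genes (median 0.35) and 0 of 1 Hist4 gene. For Hist3 and Hist4 the count was also 0 with DESeq2 and limma-voom, and 0 had an unadjusted edgeR p under 0.05. The count of Hist2 genes was 4 with DESeq2, by which 5.26% of all genes rose. Summed levels gave ratios of 1.55 for Hist1, 1.304 for Hist2, 1.00 for Hist3 and 1.23 for Hist4. The Hist2 sum of DSS 3 was 259.5 CPM, below every Control mouse (304 to 429 CPM). Without DSS 3 the log2 ratio was 0.51 for Hist2 (0.38 with all mice) and 0.70 for Hist1 (0.63 with all mice). Hist3h2a, the most counted Hist3 gene, ran from 22.4 to 34.3 CPM in Control and from 21.7 to 31.9 CPM in DSS mice, with a log2 fold change of -0.02 (edgeR adjusted p = 0.962). Hist3h2bb-ps, a pseudogene just over the filter, had 0.35 (edgeR adjusted p = 0.65).

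On chromosome 13 the Hist1 genes fell into blocks at gaps over 100000 bases. In the block from 21715763 to 21837530, 12 of 19 genes rose, with log2 fold changes from 0.68 to 1.88. From 22035164 to 22043676, 3 of 5 rose (0.46 to 1.53), and from 23531050 to 23764406, 15 of 28 tested genes rose (-0.11 to 1.23). The remaining Hist1 members, Hist1h2ba and Hist1h2al, stood alone in blocks of their own, and neither was called.

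Histone genes that start next to each other and point apart share the sequence between them. There were 14 such pairs within 1000 bases, 13 of them an H2A and an H2B gene. Both genes rose in 4 pairs, 1 gene in 5 pairs and neither in 5. The H2A gene had the higher log2 fold change in 11 of the 13 H2A and H2B pairs. The 250 bases between Hist1h2ac and Hist1h2bc, all of which lie in the Hist1h2ac window printed above, separate a gene that rose with 0.73 from one at 0.13 (edgeR adjusted p = 0.704). Hist1h2ah, with 301 bases to Hist1h2bk, rose with 1.53, and Hist1h2bk had 1.00 ± 0.47 (edgeR adjusted p = 0.273), from 1.80 to 19.2 CPM in Control mice.

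Near-identical copies limit what a single gene's count says. Windows of 50 bases found in no other gene made up a median of 45.0% of a member's transcript, and under 10% in 13 members. Among these 13 are Hist1h2ah (7.87%), Hist1h2af (6%) and Hist1h2aj (6.93%). How reads that fit several copies were counted is not given in the sources used here. Of members with under 20% such windows, 12 of 20 rose (median log2 fold change 1.16, median SE 0.28). Of those with 60% or more, 6 of 22 rose (median 0.41, median SE 0.16), and these include Hist1h1d, Hist1h3d, Hist1h1b and Hist1h4j. Across the 68 members log2 fold change and the share of such windows had a Spearman rho of -0.48. Part of the sharing was with genes outside the members. Hist2h2bb and Hist2h3c1, the 2 called Hist2 genes, had 0% of windows found in no other gene. The share found in no other member was 100% and 65.3%.

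Sums over copies remove part of this uncertainty. Hist1h2ao and Hist1h2ap, which share over 93% of their windows, together gave 12.9 to 32.9 CPM in Control mice and 38.7 to 66.6 CPM in DSS mice, with every DSS mouse above every Control mouse. Hist1h2bq and Hist1h2br together gave 36.8 to 55.9 CPM and 62.7 to 124 CPM, again without overlap. Hist1h2ad and Hist1h2ah together gave 19.6 to 33.0 CPM and 38.7 to 83.1 CPM, also without overlap. Hist1h4m and Hist1h4n together gave 31.5 to 68.8 CPM and 55.3 to 98.8 CPM, and here the groups overlapped, with 3 of 6 DSS mice above every Control mouse, unlike Hist1h4m alone. Hist2h2aa1 and Hist2h2aa2 together gave 234 ± 38.1 CPM in Control and 245 ± 62.5 CPM in DSS mice (SD, n = 6 each), a ratio of 1.05.

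In single mice, several near-identical copies were low together. In DSS 4, Hist1h4n, Hist1h2ap and Hist1h2br, side by side on chromosome 13, were at 10.8, 3.57 and 2.96 CPM, below the other DSS mice (lowest 25.0, 10.6 and 18.9). Their partners Hist1h4m, Hist1h2ao and Hist1h2bq were at 52.0, 63.0 and 89.5 CPM in that mouse, the highest of all 12. In DSS 3, the Hist2 genes Hist2h3c2, Hist2h2aa2 and Hist2h3b were at 4.11, 10.4 and 8.05 CPM, below all other mice. Of their partners in that mouse, Hist2h2aa1 was at 143 CPM, within the range of the other DSS mice, and Hist2h3c1 was at 37.7 CPM, below the other DSS mice (59.9 to 85.4). The ratio of Hist2h2aa1 to Hist2h2aa2 was 13.7 in DSS 3 and 1.01 to 2.35 in the other mice. These genes were chosen after their values were seen, and the cause was not tested.

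**Figure D4:**
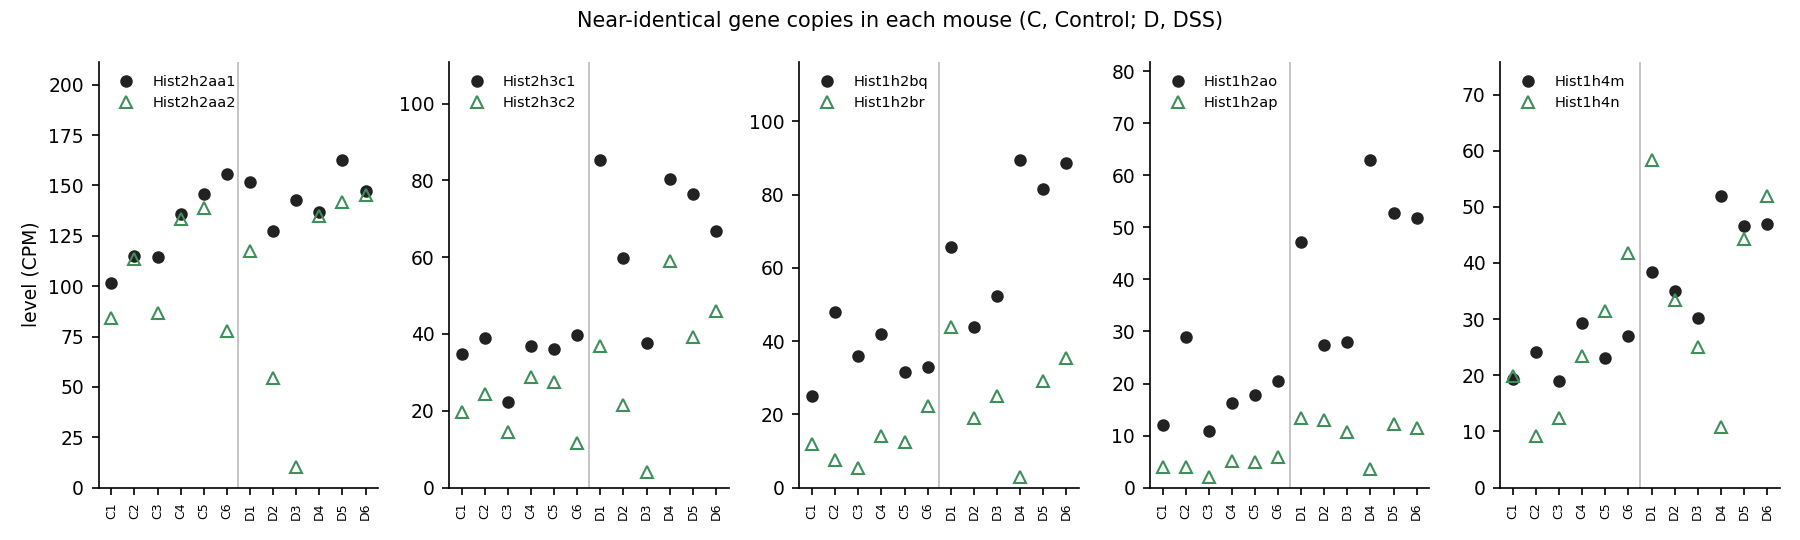
Level in CPM of 5 pairs of near-identical copies in each mouse (C, Control; D, DSS; each panel has its own axis from 0). The second copy is near 0 in D3 for both Hist2 pairs and in D4 for Hist1h2bq with Hist1h2br, and low in D4 for Hist1h2ao with Hist1h2ap and for Hist1h4m with Hist1h4n, while the first copy is not low there in the Hist1 pairs.

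Other histone genes and the machinery of histone supply were counted in the same fit, and differences between these lists and the members were not tested. Of 11 genes listed as replacement histones, 2 rose and 1 fell (median log2 fold change -0.04). Whether each of them is made in all phases of the cell cycle was not measured here. Cenpa, the centromeric H3, ran from 2.43 to 3.72 CPM in Control and from 4.18 to 6.07 CPM in DSS mice, without overlap, with 0.62 ± 0.13 (edgeR adjusted p = 0.0164). H2afx, the H2A variant phosphorylated at DNA breaks, rose with 0.52 ± 0.13 (edgeR adjusted p = 0.033). H3f3b, which encodes H3.3, fell by 0.38 on the log2 scale, from 225 ± 27.5 to 173 ± 13.4 CPM (SD, n = 6 each; edgeR adjusted p = 0.0215), with every DSS mouse below every Control mouse. H1f0, the linker histone of resting cells, had -0.32 (edgeR adjusted p = 0.0546), and H2afz 0.05 (edgeR adjusted p = 0.871).

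Of 17 tested genes for histone mRNA processing, 0 rose and 0 fell with edgeR (median log2 fold change 0.05); 3 had an unadjusted p under 0.05, and 2 rose with DESeq2 and 2 with limma-voom. Slbp ran from 12.8 to 15.3 CPM in Control mice and from 12.8 to 16.7 CPM in DSS mice, with 0.11 ± 0.08 (edgeR adjusted p = 0.512). Of 18 genes for histone supply and chaperones 1 rose: Asf1b, a chaperone of new H3 and H4, with 1.02 ± 0.23 (edgeR adjusted p = 0.0193), from 1.01 to 1.69 CPM in Control to 1.59 to 3.48 CPM in DSS mice. Of 24 S phase genes 4 rose (median 0.27): E2f2, a transcription factor of the cell cycle, with 0.87, Rrm2 and Tk1, which make nucleotides, with 0.92 and 0.82, and Mcm5, a helicase subunit, with 0.71. Pcna, the polymerase clamp, had 0.11 (edgeR adjusted p = 0.694). Of 16 G2 and M phase genes 12 rose (median 1.02), among them Mki67, from 9.48 to 15.7 CPM in Control to 17.9 to 54.1 CPM in DSS mice, without overlap (1.38 ± 0.23, edgeR adjusted p = 0.00333).

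**Figure D5:**
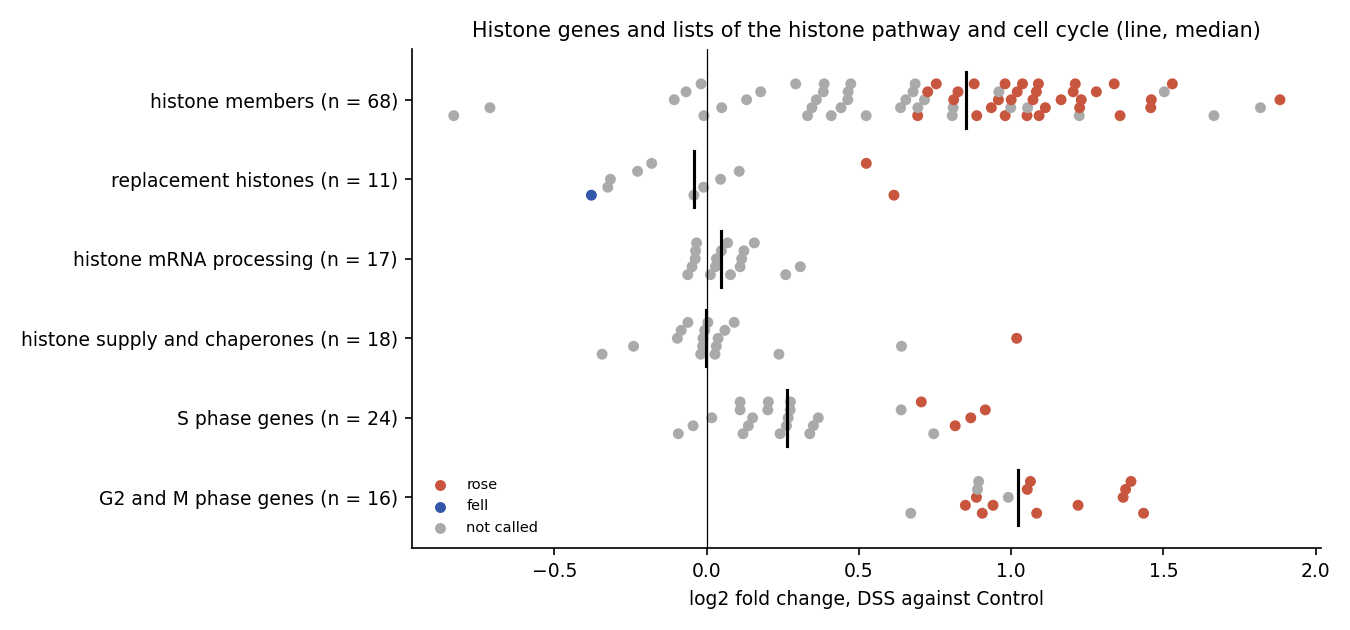
Log2 fold change of each tested gene, DSS against Control, for the histone members and 5 lists of the histone pathway and cell cycle; red rose, blue fell, grey was not called, and the black line is the median. The histone members and the G2 and M phase genes have medians of 0.85 and 1.02, while the medians of replacement histones, processing and chaperones lie within 0.05 of 0.

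Marker genes of granulocyte precursors, neutrophils and monocytes moved in the same direction as the histone genes. All 7 granulocyte precursor markers rose, their sum running from 3.23 to 10.3 CPM in Control mice and from 14.4 to 101.4 CPM in DSS mice. All 10 neutrophil markers rose (68.5 to 200 against 260 to 1395 CPM), as did 5 of 6 monocyte markers (154 to 183 against 216 to 426 CPM). DSS 3 had the lowest sum of the DSS mice for all 3 lists, and for G2 and M phase genes (54.0 CPM, against 69.8 in DSS 2 and 91.4 to 160 in the others). Of the 32 risen histone genes, 21 had their lowest DSS value in DSS 3 and 10 in DSS 2, and in 25 these mice were the lowest pair. DSS 2 was the next lowest DSS mouse for granulocyte precursor (47.3 CPM) and monocyte markers (302 CPM). For neutrophil markers DSS 2 was at 1323 CPM, with only DSS 6 higher (1395 CPM). None of the tested genes for erythroid (10), B precursor (4), T cell (7), skeletal muscle (7), choroid plexus (6), border macrophage (6), colon epithelium (4) or germ cells (1) passed the edgeR test; of these 45 genes, 6 had an unadjusted p under 0.05, 3 rose with DESeq2 and 2 with limma-voom. Among lists with called genes, 5 of 6 osteoclast markers fell, as did Ibsp of 7 osteoblast, Aldh1a2 of 8 meningeal fibroblast and Tubb3 of 5 neuron markers. The part of cell composition in the histone result was not tested.

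Libraries held 9312788 to 41869997 counts, and histone members took 13810 to 75115 counts a library, or 0.0669% to 0.321%. The lowest share was in Control 2, where a single ribosomal RNA feature took 32.3% of counts, and DSS 2 had the most skeletal muscle marker RNA (187 CPM against 10.9 to 25.4 in the others). Without both mice, 37 members and 4.55% of all genes rose. Choroid plexus marker RNA differed widely between mice within each group. Its sum ran from 50.1 to 6784 CPM in Control mice and from 33.3 (DSS 4) to 6876 CPM (DSS 2) in DSS mice. The part of this uneven tissue content in the histone result was not tested.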

How the data were processed

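Stranded total RNA libraries of 12 meninges, 6 Control and 6 DSS, were made by the authors, per the labels' protocols. HISAT2, featureCounts, Trim Galore, FastQC, CASAVA and mm10 are named in the submitters' processing notes. For versions, annotation, strand setting and multi-copy reads, the information is not given in the sources used here. The deposited counts per gene symbol are whole numbers, not normalized. A deposited normalized table was not used.

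Tests used edgeR 4.0.16 (R 4.3.3). Genes passing filterByExpr (minimum count 10, minimum total 15) were scaled by TMM and given a two-sided quasi-likelihood F-test on treatment alone, Benjamini-Hochberg adjusted over 18593 genes. An SE is the size of a log2 fold change divided by the root of its F. CPM uses TMM library sizes. Alternatives used DESeq2 1.42.0 and limma 3.58.1; edgeR was tested on simulated data. Sequence windows, stem-loops and coordinates came from GENCODE M21 (GRCm38), promoters from RefSeq.

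Members and lists were chosen with earlier results of these data known. Named were called members up to 24 by p, the 2 highest per length in each class, the most counted gene of each other cluster, those next to the filter, and, of 4 pathway lists, up to 4 called genes and the most counted, with Slbp, Mki67, H2afz, H3f3b and H1f0. Other genes named were chosen after their values were seen. The same-numbered mice of both groups did not deviate together, so numbers were not treated as pairs. Within each group the libraries differed beyond sampling noise (chi-square per degree of freedom at least 18.3). The p-values judge the difference between groups against the spread between mice.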

Additional observations from a re-analysis of the deposited data

Results flagged for a closer look

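In 10 of 184 groups of 6 mice checked, 1 mouse stood apart from the other 5 (Dixon's ratio, the gap over the whole range, above its 95% critical value), and chance alone gives about 1 in 20. Some of these touch genes of the Hist2 cluster in DSS mice. Hist2h2ab was at 10.6 CPM in DSS 1 and at 2.496 to 3.12 in the other DSS mice (ratio 0.923), and Hist2h2be was at 16.6 CPM in DSS 2 and 9.17 to 11.8 in the others (0.644). Hist1h2ap was low in DSS 4, at 3.57 CPM against 10.6 to 13.4 (0.719), and Hist1h2ag was low in DSS 3, at 9.73 CPM against 14.2 to 16.3 (0.675).

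Among Control mice, Hist2h3c1 was low in Control 3, at 22.2 CPM against 34.7 to 39.7 (0.715). Hist1h4j was high in Control 1, at 9.38 CPM against 6.47 to 7.30 (0.713). Control 4 was high in Hist1h4f, at 24.6 CPM against 8.72 to 12.5 (0.763), and in Hist1h2ba, at 4.45 CPM against 0.24 to 0.84 (0.858). Outside the members, Ddx39b, an RNA helicase, was low in Control 2, at 65.1 CPM against 77.7 to 82.2 (0.737), and Rrm2 was high in Control 3, at 2.88 CPM against 2.12 to 2.37 (0.668).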

How the results depend on the processing

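The 24 named called members, chosen for the smallest p in the main fit, kept their call and direction under all 20 other settings. Of all 32 members risen in the main fit, 26 were still risen without DSS 4, the lowest number over these settings. Under any setting, 0 members fell. Members risen numbered 27 to 41 over these settings. Genes risen and fallen over the whole table were 684 and 235, against 1059 and 499 with DESeq2's Wald test. That test gave 7 risen H4 and 4 risen Hist2 genes, with 5.26% of all genes risen. Limma-voom with quality weights gave 5 risen H4 genes, with 4.75% of all genes risen, and 479 genes fallen. With no filter 156 genes fell. Fitting the replicate block gave 8 risen H4 genes, with 2.94% of all genes risen. Leaving out 1 mouse at a time gave 443 to 989 genes risen and 95 to 390 fallen (the highest of both without DSS 2), and 27 to 40 members risen: H1 2 to 3, H2A 11 to 12, H2B 6 to 11, H3 5 to 10, H4 2 to 5, Hist1 25 to 37 and Hist2 2 to 3. Directions that turned were of values near 0 or of few counts. Hist3h2a had -0.02 with all mice, 0.022 with voom, 0.00788 without Control 2 and DSS 2, and -0.074 to 0.072 leaving out 1 mouse. Hist2h2aa2 had 0.0919 without Control 2 and DSS 2, and -0.20 to 0.17 leaving out 1 mouse. Leaving out 1 mouse gave -0.0071 to 0.15 for Hist1h1e, -1.05 to 0.47 for Hist1h2ba, -0.0023 to 0.086 for Ddx39b, -0.13 to 0.00053 for Atrx and -0.053 to 0.079 for the log2 ratio of the Hist3 sum. The cause was not tested. The lowest library gives 13810 histone counts, so single members under 1 CPM rest on few reads.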
